A study of Sus scrofa with 24 samples.

Results

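The unfolded protein response is the set of signals by which a cell answers an excess of unfolded protein in the endoplasmic reticulum (ER), the compartment where secreted and membrane proteins are folded. Its 3 sensors sit in the ER membrane: IRE1 (gene ERN1) splices the messenger of the transcription factor XBP1, PERK (gene EIF2AK3) slows translation by phosphorylating eIF2 while favouring that of ATF4, and ATF6 is cut in the Golgi to release a transcription factor. XBP1 and ATF6 raise ER chaperones, and ATF4 raises amino acid genes and the factor CHOP (gene DDIT3). Secretory cells such as plasma cells, goblet cells and Paneth cells depend on these pathways for their high protein output, as shown in mice.

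The genes described here are 10 of the 20674 genes in the deposited table, selected by their symbols: HSPA5, HSP90B1, PDIA4 and DNAJB9 among the chaperones, ERN1, EIF2AK3 and ATF6 among the sensors, and XBP1, ATF4 and DDIT3 among the transcription factors. Poly(A) RNA was sequenced from the colon and the ileum of female pigs (sows) of 4 diet groups, with 3 libraries per tissue and diet and 24 in all. The labelled diets were HN (H+N in the study design), with 7.46% crude fibre and 0.05% N-carbamylglutamate (NCG, an analogue of the activator of carbamoyl phosphate synthase), HF, with 7.46% crude fibre and no NCG, LN (L+N), with 3.73% crude fibre and 0.05% NCG, and LF, with 3.73% crude fibre and no NCG. The diets were fed from breeding through a gestation of 114 days. The labels do not say whether the 3 libraries of a group came from separate sows, nor which colon and ileum libraries came from the same sow, so p-values measure the spread between libraries, which may be technical.

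The libraries held 11951729 to 19896941 counted reads and 16309 to 16983 detected genes. All 10 genes passed the filter on low counts in every model, with 95 reads at the lowest (DDIT3 in colon HF replicate 1) and 19624 at the highest (PDIA4 in ileum LF replicate 2). Levels per sample are given below as CPM, read counts scaled to the library total after TMM normalization, and levels between genes as the authors' FPKM, which is per gene length. In 3 libraries the markers of plasma cells, the antibody-secreting cells of the gut wall, were far below those of the others: the summed CPM of 8 markers, XBP1 left out, was 236 in colon HN replicate 1, 382 in colon LF replicate 2 and 136 in ileum LN replicate 3, against 4051 to 51170 in the other 21. Colon HN replicate 1 and colon LF replicate 2 also had the lowest colon sums for goblet cell (186 and 134 CPM) and colonocyte markers (111 and 39.6 CPM). Their T and NK cell sums (36.3 and 24.7 CPM) were the lowest in the colon, and their smooth muscle sums (95820 and 103638 CPM) the highest. Ileum LN replicate 3 had the lowest B cell sum of the ileum (4.46 CPM) and the highest enterocyte sum (17089 CPM). Defining markers of the labelled tissues were uneven: FABP6, an ileal bile acid binding protein, was at 8419 CPM in ileum LF replicate 1 and at 0 CPM in ileum LF replicate 3. Results for the colon against the ileum are given with and without the 3 libraries.

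On the Sscrofa11.1 assembly the 10 genes lie on 8 chromosomes. The chaperone genes are HSPA5 (gene ID 407060, chr1:265930044-265934959, minus strand), HSP90B1 (397191, chr5:80511513-80531016, minus), PDIA4 (100522203, chr9:109260850-109280256, plus) and DNAJB9 (100521593, chr18:36578928-36584211, minus). The sensor genes are ERN1 (100510978, chr12:14881913-14963290, plus), EIF2AK3 (100513348, chr3:57423894-57506247, plus) and ATF6 (100158076, chr4:88591279-88806156, minus). The transcription factor genes are XBP1 (100217386, chr14:46011239-46016526, minus), ATF4 (100144302, chr5:8742964-8745752, minus) and DDIT3 (100240743, chr5:22785441-22789867, minus). HSP90B1 overlaps C5H12orf73 on the other strand by 8430 bases and DDIT3 overlaps MARS on the other strand by 69 bases. Without the strand setting of the counting, which is not given in the sources used here, reads in those overlaps cannot be told apart. C5H12orf73 averaged 31.2 CPM in the colon and 34.1 CPM in the ileum, and MARS averaged 54.9 CPM in the colon and 59.8 CPM in the ileum.

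By length-corrected level the members fell into an abundant and a scarce set in both tissues. In the colon the mean FPKM was 189 for XBP1, 187 for PDIA4, 162 for HSPA5, 158 for ATF4 and 139 for HSP90B1. The other 5 were at 22.8 FPKM for DNAJB9, 16.2 for ATF6, 11.4 for EIF2AK3, 10.8 for DDIT3 and 7.39 for ERN1. HSP90B1, the lowest of the abundant set, exceeded DNAJB9 in 12 of 12 colon libraries, whereas neighbours within the abundant set changed places: XBP1 exceeded PDIA4 in 7 of 12, and HSPA5 exceeded ATF4 in 7 of 12. EIF2AK3 and DDIT3 did not differ in order, with EIF2AK3 higher in 6 of 12.

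In the ileum the mean FPKM was 294 for PDIA4, 245 for XBP1, 220.3 for HSPA5, 187 for HSP90B1 and 156 for ATF4, followed by 35.4 for DNAJB9, 15.5 for EIF2AK3, 14.5 for DDIT3, 13.1 for ATF6 and 11.9 for ERN1. ATF4 exceeded DNAJB9 in 12 of 12 ileum libraries. The gaps among EIF2AK3, DDIT3, ATF6 and ERN1 were small, with DDIT3 above ATF6 in 6 of 12 libraries and ATF6 above ERN1 in 7 of 12. The messengers of the sensors were therefore among the 5 scarcest members in both tissues, and those of the ER chaperones HSPA5, HSP90B1 and PDIA4 among the 5 most abundant.

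**Figure D1:**
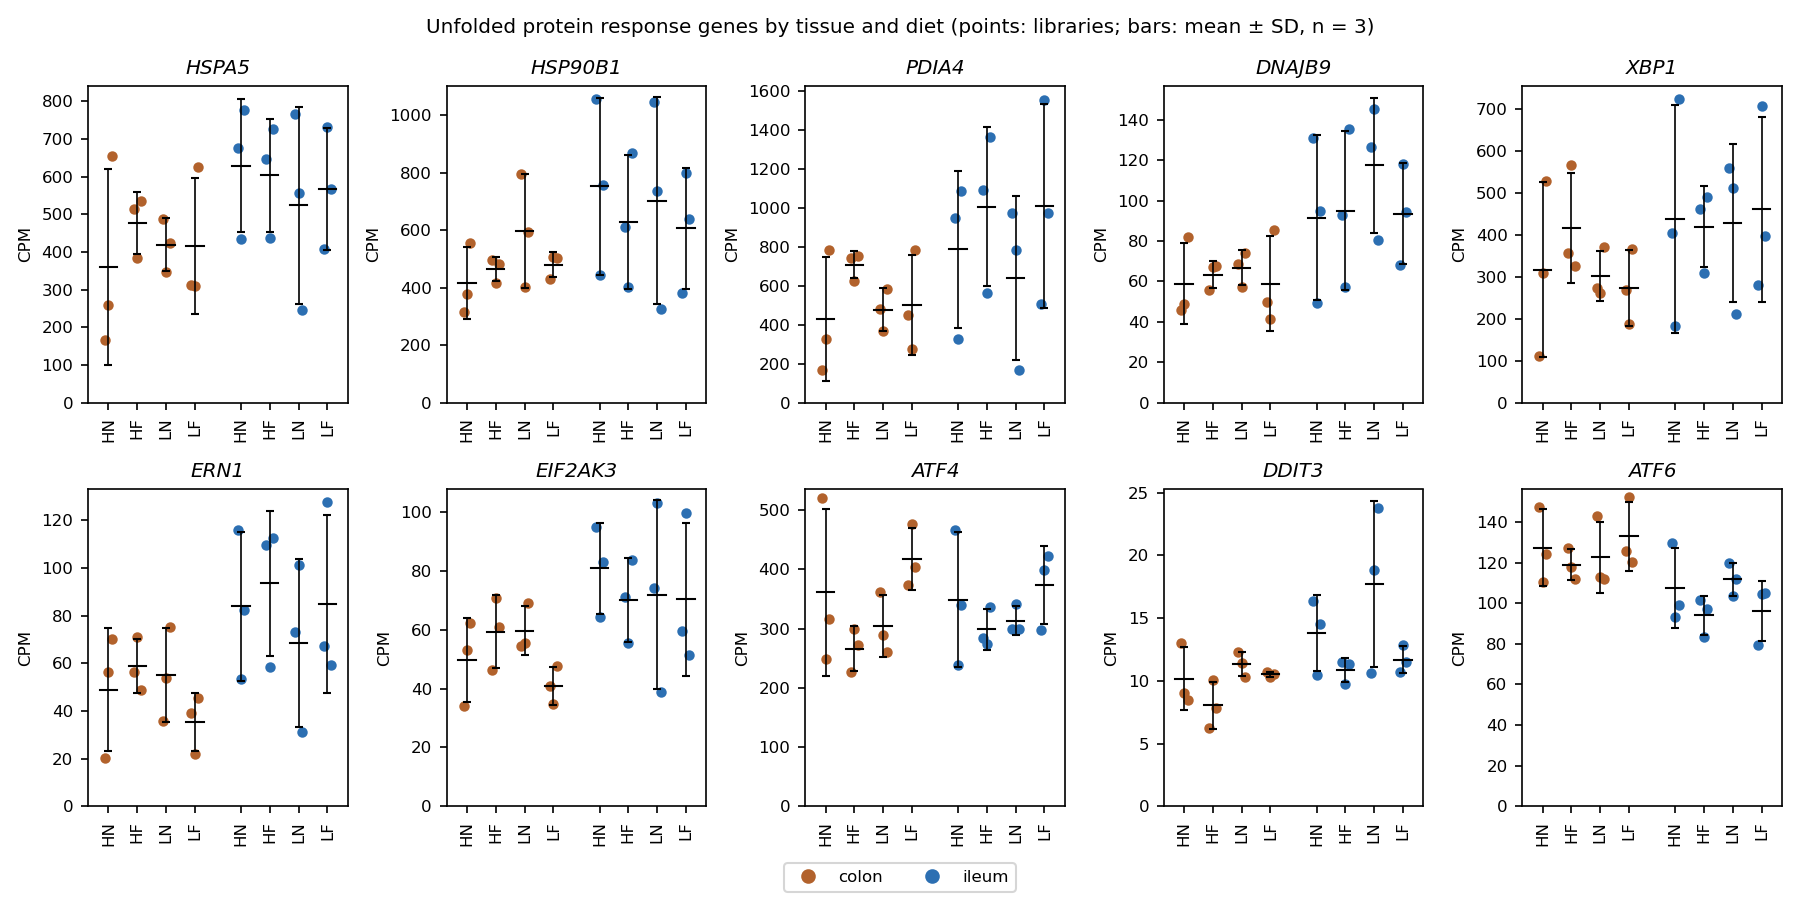
Level of each of the 10 genes (CPM, linear axis from 0) in every library, by tissue and diet, with the mean and SD of 3 libraries per group. Each gene has its own axis. The 12 colon libraries of DNAJB9 lie between 41.5 and 85.4 CPM and the 12 ileum libraries between 49.1 and 146 CPM.

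In the colon, DNAJB9, ERN1, EIF2AK3 and DDIT3 were lower and ATF6 was higher than in the ileum, averaged over the 4 diets. The other 5 members did not pass the test. Thus 5 of 10 members were called by edgeR's quasi-likelihood test at an adjusted p under 0.05, 1 higher and 4 lower, against 28.4% of all 15675 genes tested (12.5% higher and 15.9% lower). Before adjustment 8 of 10 had a p under 0.05, against 40.1% of all genes, and neither share was tested against its background. The median log2 fold change of the members was -0.47, against -0.03 over all genes. With a block by diet and replicate number, added after the data were seen, ATF6 and DNAJB9 were called, while DDIT3 (edgeR adjusted p = 0.0717), EIF2AK3 (0.12) and ERN1 (0.134) were not. Colon means were below ileum means in 4 of 4 diets for 8 members and above them in 4 of 4 diets for ATF6, whereas ATF4 was lower in 2 diets and higher in 2.

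Among the chaperones, DNAJB9 (ERdj4) is an ER co-chaperone that hands unfolded proteins to degradation and holds IRE1 in check. Its level was 41.5, 62.2 and 85.4 CPM (lowest, median and highest of 12) in the colon, against 49.1, 94.5 and 146 CPM in the ileum. The tissues overlapped, but 3 of 3 LN libraries of the colon, at 68.8, 57.3 and 74.2 CPM, lay below 3 of 3 LN libraries of the ileum, at 126, 146 and 80.6 CPM; 24.1% of all genes were separated in this way in LN. The log2 fold change was -0.68 ± 0.19 (SE, edgeR adjusted p = 0.0119).

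HSPA5 (BiP) is the main ER Hsp70 chaperone and the inhibitor of the 3 sensors. It had 166, 404 and 656 CPM (lowest, median and highest) in the colon, against 246, 607 and 777 CPM in the ileum. HSP90B1 (GRP94), the ER member of the Hsp90 family, had 316, 489 and 796 CPM in the colon, against 326, 687 and 1056 CPM in the ileum. PDIA4, a disulfide isomerase of the ER, had 170.5, 533 and 785 CPM in the colon, against 169, 960.5 and 1553 CPM in the ileum. For each of the 3 genes the ranges overlapped widely and the lowest library of each tissue was the same 1: colon HN replicate 1 and ileum LN replicate 3. The log2 fold changes were -0.48 ± 0.23 for HSPA5, -0.46 ± 0.20 for HSP90B1 and -0.70 ± 0.31 for PDIA4, with edgeR adjusted p = 0.124, 0.0944 and 0.0998 in that order, so none was called.

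Among the sensors, ERN1 (IRE1) had 20.1, 51.4 and 75.4 CPM (lowest, median and highest) in the colon, against 31.3, 77.8 and 128 CPM in the ileum. Its log2 fold change was -0.76 ± 0.24 (edgeR adjusted p = 0.0254). EIF2AK3 (PERK) had 34.0, 53.8 and 71.0 CPM in the colon, against 38.7, 72.7 and 103 CPM in the ileum. Colon and ileum libraries did not overlap in HN or in LF for EIF2AK3, nor in LF for ERN1, where 15.3% of all genes in HN and 20.1% in LF were separated in this way. The EIF2AK3 log2 fold change was -0.50 ± 0.16 (edgeR adjusted p = 0.027).

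ATF6 was the only member with a called change in the other direction. Its level was 110.3, 122 and 152 CPM in the colon, against 79.4, 103 and 130 CPM in the ileum, which made it the member with the narrowest spread. The ranges overlapped over all diets, while the colon libraries lay above the ileum libraries in HF and in LF; 30% of all genes in HF were separated in this way. The log2 fold change was 0.30 ± 0.09 (edgeR adjusted p = 0.0152).

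Among the transcription factors, DDIT3 (CHOP), which promotes cell death under prolonged ER stress, had 6.25, 10.3 and 13.0 CPM in the colon, against 9.78, 11.5 and 23.7 CPM in the ileum. The log2 fold change was -0.42 ± 0.13 (edgeR adjusted p = 0.0234). DDIT3 is the shortest of the 10 gene models, at 929 bases, and after a trend with gene length was removed its fold change was -0.27 with an edgeR adjusted p = 0.208. XBP1 had 111, 318 and 566 CPM in the colon, against 183, 433 and 724 CPM in the ileum, a log2 fold change of -0.43 ± 0.26 (edgeR adjusted p = 0.233). ATF4 had 226, 308 and 520 CPM in the colon, against 239, 319 and 466 CPM in the ileum. Its difference was 0.00 ± 0.13 on the log2 scale, with a 95% interval from -0.27 to 0.27. Gene counts do not separate spliced from unspliced XBP1 messenger, nor phosphorylated or cut sensors from resting ones.

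**Figure D2:**
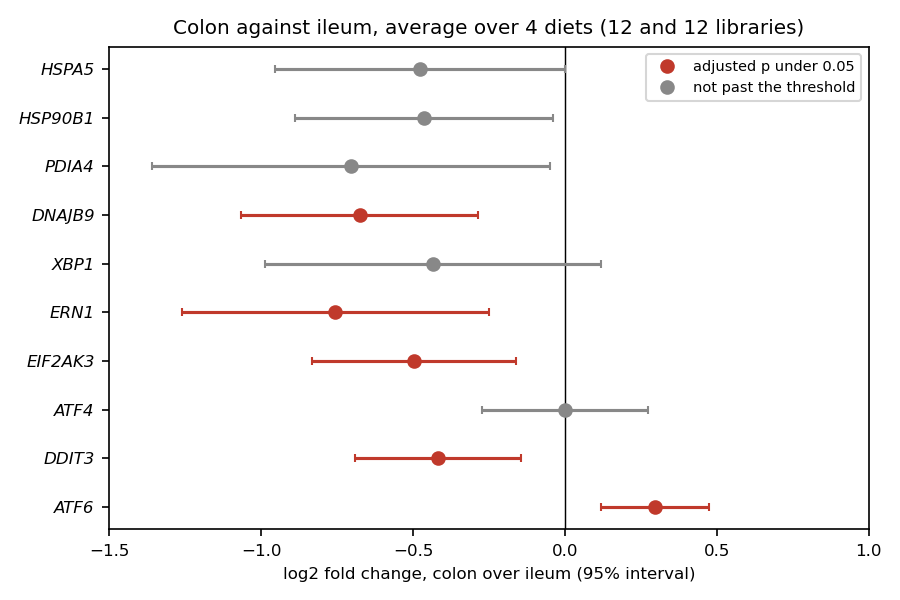
Log2 fold change of each member, colon over ileum, averaged over the 4 diets (12 libraries in each tissue), with its 95% interval; red marks an edgeR adjusted p under 0.05. ATF6 lies to the right of 0, DNAJB9, ERN1, EIF2AK3 and DDIT3 lie to the left, and ATF4 lies at 0.00.

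The plasma cell markers also differed between the tissues: 9 of 10 symbols were found, none was at 0 in any library, and their summed level was 348 to 13665 CPM (median 8087) in the colon and 348 to 51660 CPM (median 24653) in the ileum. These 9 include the member XBP1. Without it the sum was 236 to 13137 CPM in the colon and 136 to 51170 CPM in the ileum. Smooth muscle markers (9 of 9 found, none at 0) summed to 1222 to 103638 CPM (median 20959.8) in the colon and 903 to 44587 CPM (median 1502) in the ileum. Enterocyte markers (9 of 10 found) summed to 127 to 5628 CPM (median 1682) in the colon and 2129 to 17089 CPM (median 11292) in the ileum. The part of these markers in the tissue differences of the members was not tested. In whole tissue, fewer cells of a type and less RNA per cell cannot be told apart. Without the 3 libraries low in plasma cell markers, 4 members were called, against 30.2% of all genes. DNAJB9 (-0.62), ERN1 (-0.67), EIF2AK3 (-0.47) and DDIT3 (-0.39) fell in the colon relative to the ileum, with edgeR adjusted p between 0.0168 and 0.0336, and ATF6 was at 0.26 with an edgeR adjusted p = 0.0517. Leaving out 1 library at a time moved the count of members called between 2 and 7 over 24 omissions. It was 2 without ileum HF replicate 3 or ileum LF replicate 2, and 3 without ileum HN replicate 1, ileum LN replicate 2, colon LN replicate 1, colon LN replicate 2 or colon LF replicate 2. ATF6 and DNAJB9 were called in 24 of 24 omissions, DDIT3 in 21, ERN1 in 18 and EIF2AK3 in 15.

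The omissions that ended a call left adjusted p values just past the threshold. DDIT3 lost its call without colon LN replicate 2, ileum HF replicate 3 or ileum LF replicate 2 (edgeR adjusted p between 0.0501 and 0.0577). ERN1 lost it without replicate 2 of colon LF, replicate 1 of colon LN, replicate 3 of ileum HF, replicate 1 of ileum HN, or replicate 2 of ileum LF or LN (0.0515 to 0.0635). EIF2AK3 lost it without these 6 libraries or without replicate 1 of colon HF or HN or replicate 2 of colon LN (0.0502 to 0.0703). In the other direction, the chaperones gained calls as lower in the colon: HSP90B1 without ileum HN replicate 2 (edgeR adjusted p = 0.0484) or ileum LN replicate 3 (0.0289), PDIA4 without ileum LN replicate 3 (0.0336) or colon HN replicate 3 (0.0317), and HSPA5 without colon HN replicate 3 (0.017).

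The rest of the pathway was read through lists of named genes. Of 22 other ER folding genes tested, 1 was higher and 7 were lower in the colon, with a median log2 fold change of -0.40. Over all genes 28.4% were called (12.5% higher and 15.9% lower) with a median of -0.03, and no list was tested against these shares. FKBP14, a prolyl isomerase that acts on collagen, rose by 1.32 on the log2 scale, with a mean of 30.6 CPM in the colon, against 12.2 CPM in the ileum. P4HB (-1.20), TXNDC5 (-1.10), CNPY2 (-0.62) and PDIA6 (-0.62) were lower, and of these P4HB, TXNDC5 and PDIA6 are disulfide isomerases like PDIA4. P4HB averaged 382 CPM in the colon and 884 CPM in the ileum. The adjusted p of these 5 genes by edgeR lay between 6.99e-06 and 0.0228.

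Of 21 genes of ER-associated degradation, 0 were higher and 7 lower in the colon (median -0.29), against 12.5% higher and 15.9% lower over all genes. SYVN1, the ubiquitin ligase that XBP1 and ATF6 induce, fell by 0.60, UBE2J1, its ubiquitin-conjugating partner, by 0.56, OS9, a lectin of the same complex, by 0.42, and FAF2 by 0.29. Of 23 genes of ER translocation, signal peptide cleavage and COPII export, 0 were higher and 7 lower (median -0.31), among them SEC11C (-0.80) and SPCS3 (-0.62) of the signal peptidase, SSR2 (-0.48) of the translocon and SEC24D (-0.36) of the COPII coat. With 1 library left out, the number called in the translocation list ranged from 1 (without colon LN replicate 2, ileum HF replicate 3 or ileum LF replicate 2) to 13 (without colon HN replicate 3). The folding list ranged from 4 to 11 and the degradation list from 5 to 11, both highest without colon HN replicate 3. With a block by diet and replicate number 3 folding, 4 degradation and 1 translocation gene were called, and without the filter on low counts 5 folding and 3 translocation genes were. Without the 3 libraries low in plasma cell markers, the folding list had 1 higher and 7 lower. The degradation and translocation lists then had 0 higher and 8 lower each.

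Of 27 targets of PERK and ATF4, 1 was higher and 6 were lower in the colon (median -0.17), where 12.5% of all genes were higher and 15.9% lower. ATF4 itself was not called, while TRIB3, a pseudokinase induced by CHOP, was lower by -1.75, at 3.10 CPM in the colon and 11.5 CPM in the ileum. ATF5 (-1.18), the amino acid transporter subunit SLC3A2 (-1.12) and DDIT4 (-0.89), an inhibitor of mTORC1, were lower, and MTHFD2 (0.58), a mitochondrial folate enzyme, was higher. Of 11 other genes of the integrated stress response, DNAJC3, an inhibitor of PERK that is also in the folding list, was the only 1 called (-0.54). Without the 3 libraries this list had 0 calls by edgeR, and the PERK and ATF4 targets had 4 higher and 8 lower.

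Of 20 partners and relatives of the sensors, 1 was higher and 2 were lower in the colon, where 28.4% of all genes were called. CREB3L3, a relative of ATF6 expressed in enterocytes and hepatocytes, averaged 1.11 CPM in the colon and 229 CPM in the ileum. ERP44 was lower (-0.73) and WFS1, an ER membrane protein that restrains ATF6 signalling, higher (0.63). Of 16 cytosolic and mitochondrial heat shock genes, 2 were higher, HSPB1 (1.14) and HSPA4 (0.46), and 3 were lower, HSPA1L (-1.39), HSPA6 (-0.79) and HSP90AB1 (-0.52), with a median of 0.05. The adjusted p of the sensor relatives and heat shock genes named here lay between 3.28e-08 and 0.0457 by edgeR. Without the 3 libraries low in plasma cell markers, the sensor list had 0 higher and 2 lower, so WFS1 was no longer called as higher. The heat shock list then had 1 higher and 3 lower.

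None of the 10 members passed the test for any diet comparison in either tissue. The diets were compared as the effect of NCG (HN and LN against HF and LF), the effect of fibre (HN and HF against LN and LF), the interaction of the 2 and 5 pairs of diets, in each tissue, plus the difference between tissues in the NCG effect and in the fibre effect. In these 18 comparisons 0 of 180 member tests had an edgeR adjusted p under 0.05, the smallest being 0.221. By edgeR 3 of 180 had an unadjusted p under 0.05, and by DESeq2 5 did, with 0 of 180 past an adjusted p of 0.05. The same unadjusted threshold was passed by 9.78% of the tests of all genes over the 18 comparisons. In the ileum the share of all genes past the adjusted threshold was 5.85% with NCG, 4.34% in LN against LF, 1.88% in HN against LF and 0.00662% in HN against LN, and it was 0% in each of the other 14 comparisons. In simulated counts, 100 randomly drawn genes were changed 2-fold and 100 were changed 4-fold. There edgeR called 21% of the true 2-fold changes with NCG in the ileum and 20% in the colon, so changes of that size were mostly missed. The simulation was not set to the spread of the members and covered no diet comparison other than NCG.

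For NCG in the ileum, 5 members had positive and 5 negative log2 fold changes, between -0.53 (PDIA4) and 0.45 (DDIT3), with 95% intervals that together span -1.59 to 0.97. PDIA4 had 949, 328, 1085 CPM in HN and 972, 785, 169 CPM in LN, against 1093, 561, 1363 CPM in HF and 509, 1553, 972 CPM in LF. Libraries with and without NCG overlapped over most of this range (edgeR adjusted p = 0.565). In the colon PDIA4 had 170.5, 329.6, 785 CPM in HN and 483, 368, 584 CPM in LN, against 745, 627, 755 CPM in HF and 448, 276, 782 CPM in LF, and its NCG difference was -0.39 (edgeR adjusted p = 0.692). The NCG effect in the colon minus that in the ileum was not called for any member and lay between -0.25 (DDIT3) and 0.42 (ERN1) on the log2 scale.

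For fibre, the log2 fold changes lay between -0.25 (DDIT3) and 0.21 (ERN1) in the ileum and between -0.29 (HSP90B1) and 0.33 (XBP1) in the colon. XBP1 had 111, 310.3, 528 CPM in HN and 356, 566, 326 CPM in HF of the colon, against 274, 262, 372 CPM in LN and 268, 187, 367 CPM in LF. The highest and the lowest of the 12 libraries were both on the high-fibre diets, and the 95% interval of the difference was -0.42 to 1.08 (edgeR adjusted p = 0.836). The fibre effect in the colon minus that in the ileum lay between -0.36 (HSP90B1) and 0.39 (XBP1).

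DDIT3 came nearest to a change with NCG in the ileum. It had 16.4, 10.5, 14.6 CPM in HN and 10.7, 18.8, 23.7 CPM in LN, against 11.5, 9.78, 11.4 CPM in HF and 10.7, 12.9, 11.5 CPM in LF. Of the 6 libraries with NCG, 4 lay above all 6 libraries without it and 2 lay among them. The highest was ileum LN replicate 3, the library low in plasma cell markers. The log2 fold change was 0.45 ± 0.22 (edgeR adjusted p = 0.26), and that of LN against LF was 0.61 ± 0.31 (edgeR adjusted p = 0.302).

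In the colon, ATF4 had the smallest p of the diet tests. It had 226, 299.7, 273 CPM in HF, against 374, 476, 404 CPM in LF, and the 2 groups did not overlap. The log2 fold change was -0.66 ± 0.27 (edgeR adjusted p = 0.221). ATF4, DDIT3 and ERN1 did not overlap between HF and LF in the colon, where 35.3% of all genes were separated in this way. ATF4 and EIF2AK3 did not overlap between LN and LF in the colon, against 21.6% of all genes. Markers of other cell types also separated these libraries. The mean log2 CPM of 9 smooth muscle markers was 6.79, 7.17 and 7.20 in HF, against 12.4, 12.8 and 10.8 in LF, and that of 5 colonocyte markers was 8.49, 7.36 and 7.90 in HF, against 5.01, 2.09 and 6.39 in LF. Their part in the diet differences of the members was not tested.

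EIF2AK3 had 46.2, 71.0, 61.0 CPM in HF and 54.5, 55.5, 69.2 CPM in LN of the colon, against 40.8, 34.7, 47.6 CPM in LF. HN, with both supplements, had 34.0, 53.1 and 62.2 CPM. The log2 fold changes were 0.52 ± 0.25 for HF against LF (edgeR adjusted p = 0.258) and 0.55 ± 0.25 for LN against LF (edgeR adjusted p = 0.377), and these 2 comparisons share the LF libraries. The colon interactions were -0.79 ± 0.35 for EIF2AK3 and 0.91 ± 0.39 for ATF4, with edgeR adjusted p = 0.33 and 0.327 in that order. ERN1 had the most negative interaction, -0.90 ± 0.63 (edgeR adjusted p = 0.445).

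HSP90B1 had 316, 378, 554 CPM in HN, against 796, 402, 593 CPM in LN of the colon, and the groups overlapped (log2 fold change -0.52 ± 0.27, edgeR adjusted p = 1.0). The remaining members showed no unadjusted p under 0.1 in any diet comparison. HSPA5 group means were between 360.0 CPM in colon HN and 629 CPM in ileum HN, and those of XBP1 between 274 CPM in colon LF and 461 CPM in ileum LF. ATF6 group means were 119 to 133 CPM in the colon and 94.0 to 112 CPM in the ileum.

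**Figure D3:**
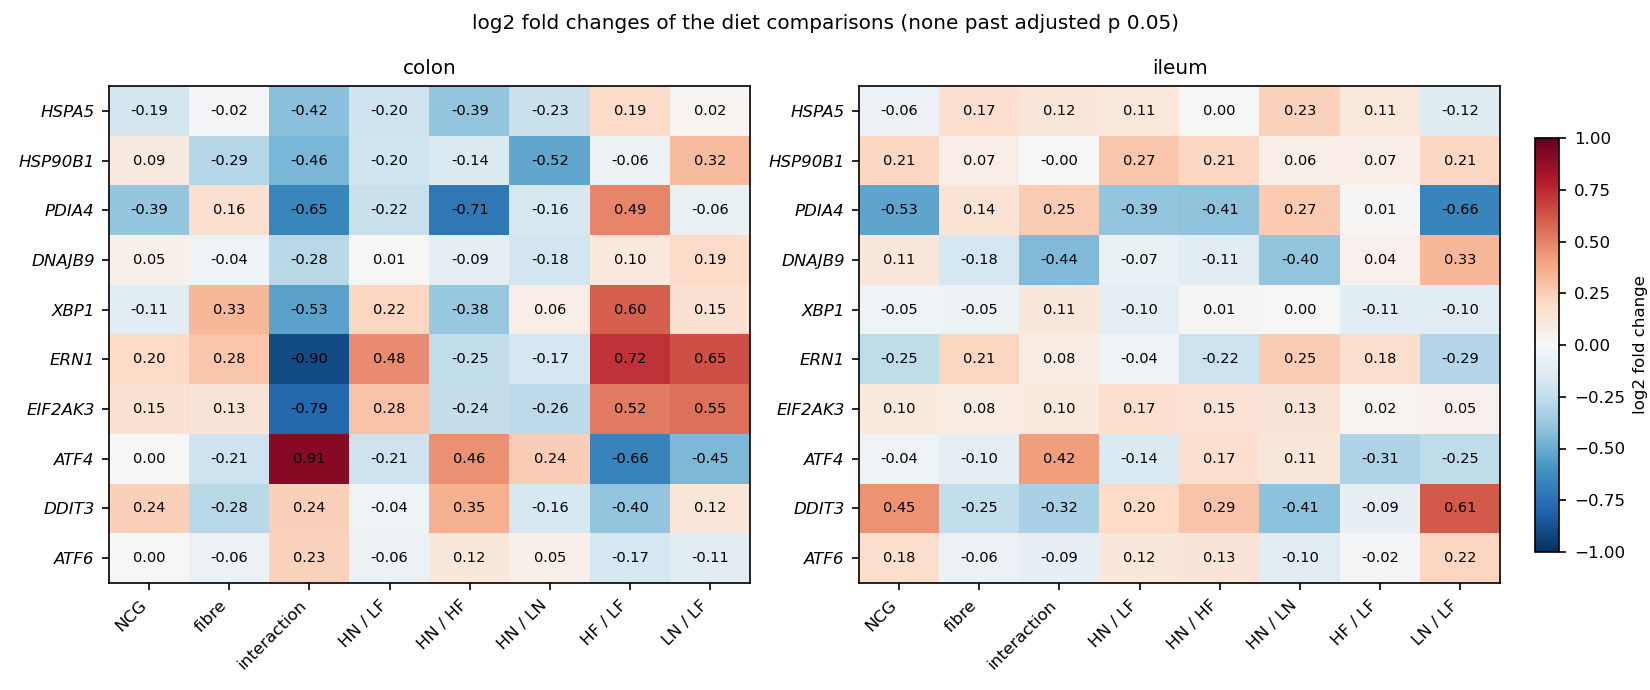
Log2 fold change of each member in 8 diet comparisons in the colon and in the ileum, the first-named diet over the second; colour runs with the value. Values lie between -0.90 (ERN1, colon interaction) and 0.91 (ATF4, colon interaction), and none has an edgeR adjusted p under 0.05.

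Diet calls among the other genes of the pathway lay in the ileum, while no gene of the whole table was called in a colon diet comparison. With NCG in the ileum 5.85% of all genes were called, and the lists were not tested against this share. For NCG 0 of 22 ER folding genes and 0 of 21 degradation genes passed, with 1 and 3 at an unadjusted p under 0.05 by edgeR and 1 call in each list by DESeq2. Their medians were -0.29 and -0.21, against -0.07 over all genes. The folding list had 16 of 22 negative values and the degradation list 16 of 21.

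In the translocation list 2 of 23 genes rose with NCG in the ileum. SEC62, an accessory subunit of the translocon that also serves in ER recovery from stress, averaged 84.5 CPM with NCG and 28.8 CPM without it, a log2 fold change of 1.51 ± 0.19 (edgeR adjusted p = 0.00241). SEC63, its partner and an ER DnaJ protein, averaged 109 CPM with NCG and 63.0 CPM without it (0.77 ± 0.16, edgeR adjusted p = 0.0173). The list median was -0.29, so these 2 genes went against it.

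Single genes of other lists rose with NCG in the ileum: the cystine transporter SLC7A11 (1.77), 1 of 27 PERK and ATF4 targets; the RNA-activated eIF2 kinase EIF2AK2 (1.25), 1 of 11; the kinases MAP3K5 (0.77) and MAPK8 (0.62), which act downstream of IRE1, 2 of 20; and HSPA6 (0.96), 1 of 16. Their edgeR adjusted p lay between 0.0231 and 0.0393. Without ileum LN replicate 3, EIF2AK2, MAP3K5, MAPK8 and HSPA6 were no longer called. Over the 12 omissions of 1 ileum library the list of EIF2AK2 had 0 calls in 8, those of the kinases and of HSPA6 in 6 each and the PERK and ATF4 targets in 5, and the translocation list had at least 1 call in each of the 12. The list of MAP3K5 and MAPK8 had at most 1 call in any omission, so these 2 kinases were never called together. LN against LF in the ileum gave SEC62 (2.13), SEC63 (1.02), HSPA6 (1.83) and MAPK8 (0.89) as higher and MTHFD2 (-1.36) as lower, and HN against LF gave SEC62 (1.36). The LF libraries are shared by these comparisons. Of all genes 4.34% were called in LN against LF and 1.88% in HN against LF.

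For 9 of 10 members the libraries of 1 group could differ by a larger ratio than the highest and lowest of the 8 group means. The largest ratio of the highest to the lowest library of a group was 5.76 for PDIA4 in ileum LN, where the values were 972, 785 and 169 CPM. It was 4.75 for XBP1, 3.96 for HSPA5 and 3.49 for ERN1, all in colon HN. The highest and lowest of the 8 group means differed by 2.36 times for PDIA4. ATF6, the exception, had a largest ratio of 1.39 within a group and of 1.41 between group means.

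The same libraries were extreme for many members. Colon HN replicate 1 had the lowest level of 6 members among colon libraries (HSPA5, HSP90B1, ERN1, EIF2AK3, XBP1 and PDIA4) and the highest of DDIT3 and ATF4. Ileum LN replicate 3 had the lowest level of 5 members among ileum libraries (HSPA5, HSP90B1, ERN1, EIF2AK3 and PDIA4) and the highest of DDIT3. Both are among the 3 libraries low in plasma cell markers. In colon HN replicate 1 the smooth muscle marker ACTG2 was at 12805 CPM and the goblet cell mucin MUC2 at 30.1 CPM. In ileum LN replicate 3 the adipocyte hormone ADIPOQ was at 1126 CPM, against 11.5 CPM or less in the other 11 ileum libraries.

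Levels of the members were correlated over the 21 other libraries after the mean of each tissue and diet group was removed. These values are descriptions without a test, and the points share the 2 tissues and their mixtures of cell types. PDIA4 and HSPA5 had a Pearson r of 0.90 (Spearman rho 0.89), PDIA4 and DNAJB9 of 0.90 (0.88), PDIA4 and HSP90B1 of 0.87 (0.80) and PDIA4 and XBP1 of 0.86 (0.85). The 2 kinases ERN1 and EIF2AK3 had an r of 0.87 (0.87) with each other and of 0.39 and 0.41 with HSPA5. ATF4 had an r of 0.70 with DDIT3 and of 0.70 with ATF6, and of 0.78 with DNAJB9. DDIT3 and HSPA5 had an r of 0.049. ATF6 and HSP90B1 had an r of 0.84 (rho 0.83). Some values depended on leaving out the 3 libraries. Over all 24, ATF4 and DNAJB9 had an r of 0.39 and DDIT3 and HSPA5 of -0.39. HSPA5 then had an r of 0.71 with ERN1 and of 0.70 with EIF2AK3. The pairs PDIA4 with HSPA5 (0.94) and ERN1 with EIF2AK3 (0.91) stayed high over all 24.

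**Figure D4:**
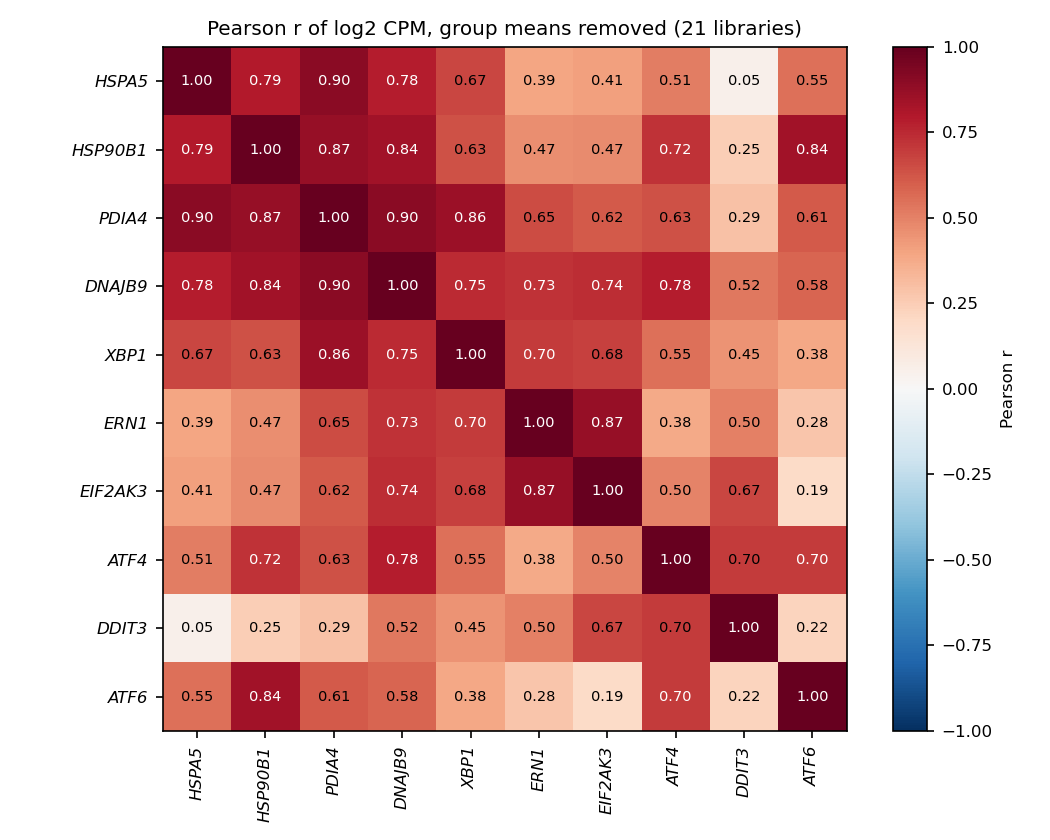
Pearson r between members over 21 libraries (log2 CPM with group means removed; colour from -1 to 1). The chaperones PDIA4, HSPA5, DNAJB9 and HSP90B1 form a block of values between 0.78 and 0.90, ERN1 and EIF2AK3 a pair at 0.87, and DDIT3 has its lowest value with HSPA5.

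Against the mean log2 level of the 8 plasma cell markers, over the same 21 libraries, ERN1 had an r of 0.92 (rho 0.92), DNAJB9 0.88 (0.90), EIF2AK3 0.83 (0.84), PDIA4 0.83 (0.84), XBP1 0.79 (0.84), HSPA5 0.64 (0.62) and HSP90B1 0.59 (0.54). Without the 2 libraries farthest from the median, ileum HF replicate 2 and ileum HN replicate 2, these were 0.88 for ERN1, 0.82 for DNAJB9 and 0.42 for HSP90B1. Within the colon (10 libraries) HSP90B1 was at 0.025 and within the ileum (11 libraries) at 0.84, so its value rests on the ileum. ATF6 was at 0.30, DDIT3 at 0.47 and ATF4 at 0.52 over 21 libraries, and in the colon at -0.43, -0.18 and -0.077. Goblet cell markers had their highest values with XBP1 (r 0.78) and ERN1 (0.62). The 8 markers are those found of JCHAIN, MZB1, PRDM1, IRF4, SDC1, TNFRSF17, POU2AF1, FKBP11 and TENT5C. Only members were left out of this list, which was not checked for other ER genes, so the axis may not be independent of the pathway. What part of each level came from plasma cells was not tested.

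**Figure D5:**
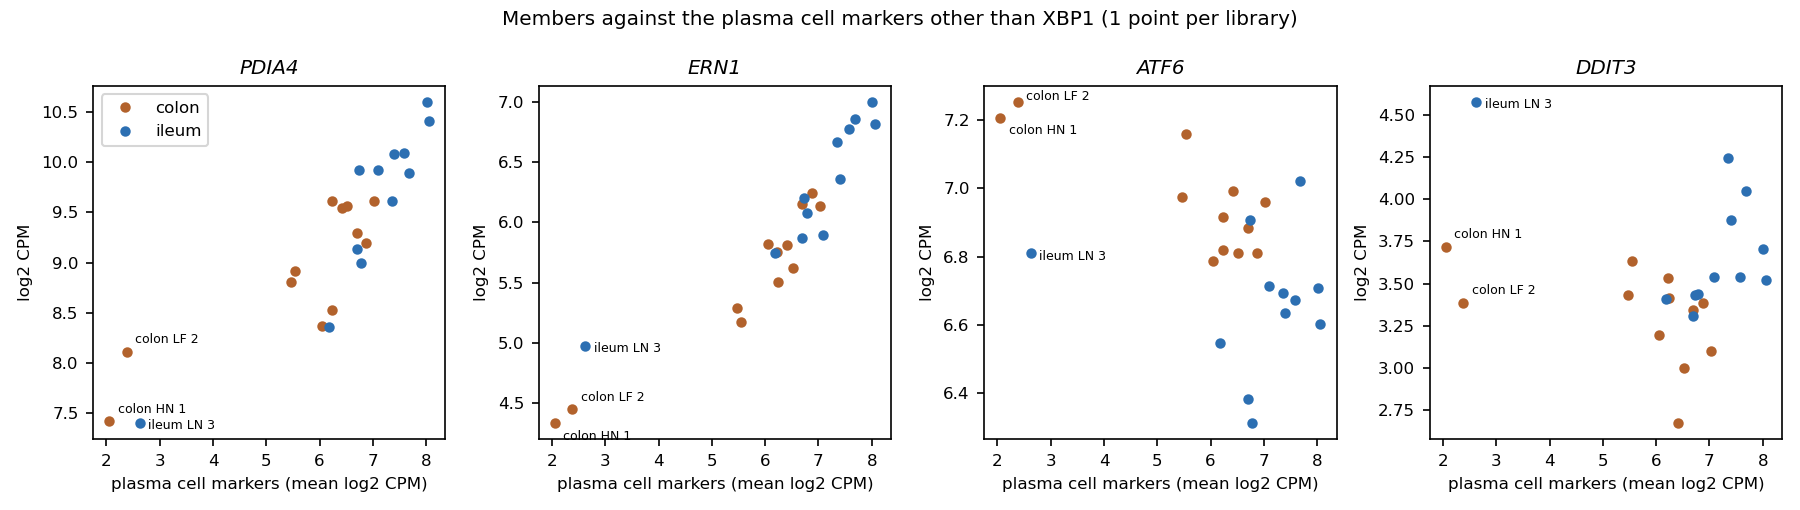
Levels of PDIA4, ERN1, ATF6 and DDIT3 (log2 CPM) against the mean log2 CPM of 8 plasma cell markers in each of 24 libraries, colon and ileum in 2 colours. The 3 named libraries lie at 2.05 to 2.63 on the marker axis, the other 21 between 5.46 and 8.06; PDIA4 and ERN1 are low in the 3, and ATF6 and DDIT3 are not.

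Over all 24 libraries, the 5 genes of 15675 whose levels were most like those of a member are given for HSPA5, XBP1, EIF2AK3 and ATF4. HSPA5 was closest to HYOU1, MANF, CALR, LRRC59 and DAD1 (r between 0.97 and 0.98, and between 0.947 for DAD1 and 0.978 for HYOU1 over the 21 libraries), of which the first 3 are ER chaperones or ER stress proteins from the same list of folding genes. XBP1 was closest to MFSD4A, TVP23B, PDXDC1, QSOX1 and CREB3L1 (0.95 to 0.97, and 0.91 to 0.96 over 21 libraries). EIF2AK3 was closest to TXNDC5 (0.92), then SNX30, ERN1, LRBA and PIK3R2 (0.91 each), and over 21 libraries these values were 0.84 for TXNDC5, LRBA and PIK3R2, 0.86 for SNX30 and 0.87 for ERN1. ATF4 had weaker likenesses, to LRAT and ZNF579 (0.87), MTTP (0.86), MVB12B and UNC5D (0.85), which were between 0.78 and 0.83 over 21 libraries.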

How the data were processed

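The authors deposited a table of raw read counts per gene together with their FPKM and the gene length in bases, per the file headers. Reads were trimmed with fastp 0.22.0, aligned with HISAT2 2.1.0 to Sscrofa11.1 and counted with HTSeq 0.9.1, tools and build as named, without their settings, in the submitters' processing notes. The deposited FPKM follow from the counts and lengths to a relative difference of 2.1e-07. Counts were tested with edgeR 4.0.16 in R 4.3.3: genes were filtered with filterByExpr, scaled by TMM, and tested with the quasi-likelihood F-test and Benjamini-Hochberg adjustment over all genes at 0.05. Diets were tested within each tissue (12 libraries, 15075 genes in the colon and 15103 in the ileum), and tissues in 1 model of 24 libraries and 15675 genes. Standard errors were taken from the fold change and its F statistic. CPM used the scale of the 24 libraries, and log2 CPM a prior count of 2. The test was checked on simulated counts. Alternatives were RLE scaling, no filter, DESeq2 1.42.0, removal of a gene length trend and a replicate block. Others left out each library or kept only the 6 libraries compared. The length trend was a smooth curve (loess in R) given to edgeR as an offset. Leaving out the 3 libraries low in plasma cell markers and a block by diet and number were added after the data were seen. The members, the lists, the rule that up to 4 called genes of the smallest p per direction be named in each list, and the rule for likeness (the 5 highest r for HSPA5, XBP1, ATF4 and EIF2AK3) were chosen with earlier results of these data known. Total counts of 11951729 to 19896941 per library put the lowest member level at 95 reads. The edgeR dispersion had a square root of 0.472 for the colon and 0.461 for the ileum.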

Additional observations from a re-analysis of the deposited data

How the results depend on the processing

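The diet results did not change: 0 of 10 members were called in each of the 18 diet comparisons under every alternative run, with a smallest adjusted p of 0.0788 over 3600 alternative values. For the colon against the ileum the count of 5 members was 2 to 7 with 1 library left out, and 2 (ATF6 and DNAJB9) with a replicate block by diet and number. With the block on replicate number alone it was 5. The numbers were not taken to pair the samples, since the labels do not say so. Of same-numbered pairs, 15 of 36 within a tissue and 5 of 12 of colon and ileum had a correlation over 0.1. Among them were all 3 colon and ileum pairs of HF (0.31, 0.17 and 0.21) and all 3 ileum pairs of HN and HF (0.40, 0.70 and 0.13). Pairs with different numbers were not computed, so these values cannot decide whether the numbers pair the samples. ATF4 changed sign around 0 in colon against ileum, at -0.00054 with the replicate block, -0.0046 with the block by diet and number, -0.11 without the 3 libraries and between -0.071 and 0.068 with 1 library left out. The cause was not tested. With 3 libraries a group, the largest member standard error on the log2 scale was 0.67 to 0.68 in every ileum diet pair and 0.51 in every colon diet pair. It was 0.95 for the ileum interaction and 0.72 for the colon interaction. For the member with the largest standard error, a change of that size would not be called. The smallest member standard error was 0.20 in every ileum diet pair and 0.17 in every colon diet pair. It was 0.28 for the ileum interaction and 0.25 for the colon interaction, so the size that could be detected differed between members.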
